A study of Mus musculus with 2 samples.

Results

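The transcripts described here encode 10 RNA-binding proteins that shorten or lengthen the life of inflammatory messenger RNAs. They are the RNases Zc3h12a (Regnase-1) and Zc3h12c (Regnase-3), the stabiliser Arid5a, the AU-rich element binders Zfp36 (tristetraprolin), Zfp36l1 and Zfp36l2, the Roquins Rc3h1 and Rc3h2, and the AU-rich element binders Elavl1 (HuR) and Khsrp (KSRP). The genes were picked by name for their known roles, with earlier results of these data known, and all 10 were found among the 19674 gene rows of the count table. They were read in 2 bulk RNA sequencing libraries of wild-type mouse skin fibroblasts, a cell line labelled MDFB: 1 culture was given IL-17A and 1 was given vehicle. Both carry the same batch label, and the labels give neither a dose nor a time of treatment. With 1 library per group no difference has a replicate check or a p-value, and intervals cover counting error only.

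IL-17A acts on fibroblasts both by switching genes on and by keeping short-lived transcripts from decay, through the adaptor Act1 (Traf3ip2). Decay of such transcripts is set by elements in the 3′ untranslated region (3′ UTR). Stem-loops with a loop of pyrimidine, purine and pyrimidine are cut by Regnase-1 or bound by Roquin, and Arid5a binds some of the same stem-loops and protects the transcript. AU-rich elements are bound by the Zfp36 proteins and Khsrp, which recruit decay enzymes, and by Elavl1, which protects. Several of these regulators carry such elements in their own messenger RNA. Regnase-1 protein is itself destroyed after phosphorylation by IKK-type kinases or cleavage by Malt1, so transcript and protein levels need not move together.

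The elements in the 10 transcripts are shown first, because they are of the kinds that these proteins read. They were searched in the 3′ UTR of 1 principal transcript per gene, GENCODE M21 on GRCm38 (mm10), with T written for U. The nonamer TTATTTATT, the preferred site of the Zfp36 proteins, was found in 6 of the 10 genes, against 7.72% of 11872 measured genes with such a transcript. The members' 3′ UTRs were longer, with a median of 2312 bases against 1088, and of the genes with a 3′ UTR over 2000 bases 15.6% held the nonamer. Each of the 3 Zfp36 genes had exactly 1 nonamer, given here with 6 bases on either side and the nonamer in capitals, 5′ to 3′ on the transcript strand, which is the minus strand of the genome for all 3.
Zfp36, chr7:28376955-28376975: acgactTTATTTATTgtatta
Zfp36l1, chr12:80108171-80108191: gttggaTTATTTATTttagaa
Zfp36l2, chr17:84184918-84184938: tttaacTTATTTATTatcttg

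Elavl1 held 8 overlapping or closely spaced nonamers between bases 3794 and 3840 after its stop codon, a number reached by 0.0421% of the genes searched. Rc3h1 and Rc3h2 had 1 each, while Zc3h12a, Zc3h12c, Arid5a and Khsrp had none of these letters in this window. A match is a description of the sequence and not a measured binding site.

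Stem-loops with 5 Watson-Crick pairs and such a loop occurred in 4 of the 10 genes, against 23.5% of the genes searched and 46.9% of those with a 3′ UTR over 2000 bases. Zc3h12a had 3 of them within a 3′ UTR of only 856 bases, and 1.15% of the genes had as many or more. The Zc3h12a and Zc3h12c stem-loops are printed with the loop in capitals and 4 bases beyond the stem on either side, all on the minus strand.
Zc3h12a, chr4:125119066-125119086: gttgatacaCATtgtatctct
Zc3h12a, chr4:125118884-125118904: gttaggcacCATgtgcctgct
Zc3h12a, chr4:125118660-125118680: agatttaaaTATtttaaatga
Zc3h12c, chr9:52113466-52113486: aatctgaacCATgttcagcaa

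The Roquin genes held stem-loops as well, Rc3h1 with 4, of which 2 overlap in a run of alternating T and A, and Rc3h2 with 2. One stem-loop with a TGT loop occurred with the same stem and loop letters in both Roquin genes, and it lies in each with these flanks.
Rc3h1, chr1:160971657-160971677, plus strand: aataacttcTGTgaagttgcc
Rc3h2, chr2:37373806-37373826, minus strand: attaacttcTGTgaagttgtt

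**Figure D1:**
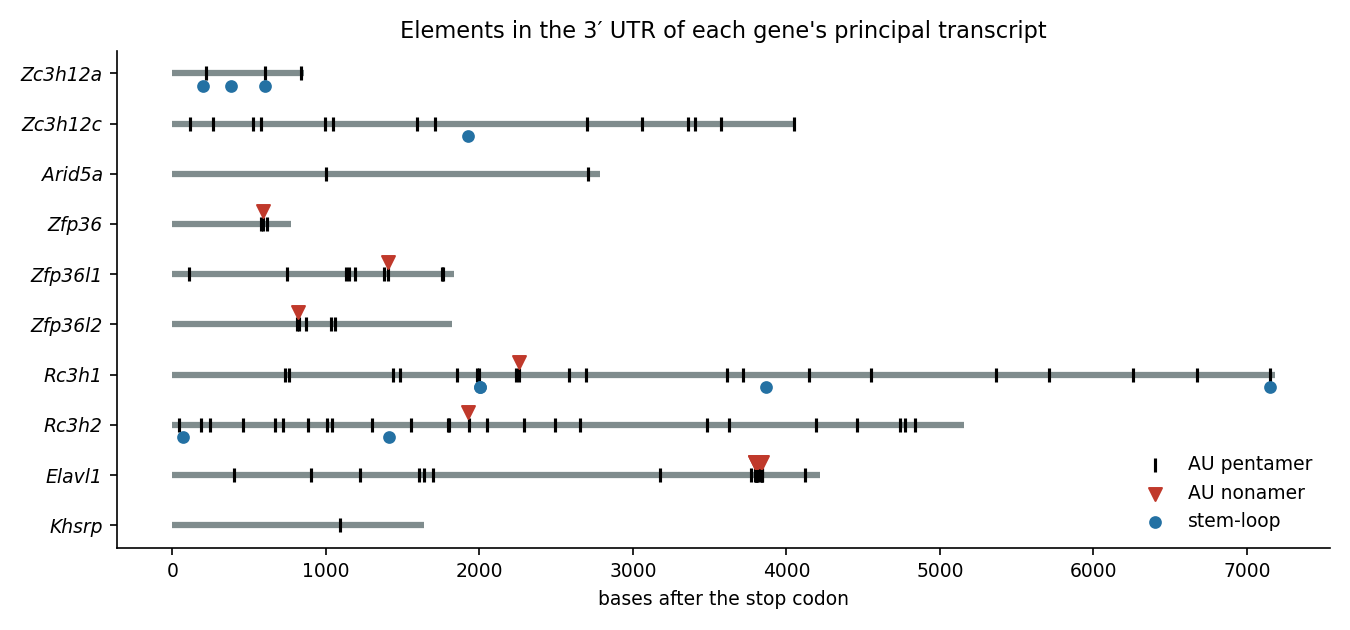
Positions of AU-rich pentamers (ATTTA, black ticks), nonamers (red triangles) and stem-loops (blue circles) along the 3′ UTR of each gene, in bases after the stop codon. Zc3h12a has 3 stem-loops in 856 bases, the 3 Zfp36 genes have 1 nonamer each, and the 8 nonamers of Elavl1 lie together near its end.

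The libraries held 23559416 counts with IL-17A and 24427027 with vehicle, and 13534 genes reached 50 counts summed over both, which are called measured here. Levels are given in CPM, the counts per 1000000 counts of a library whose size was scaled with TMM. Of the 10 listed fibroblast markers all were measured, and they summed to 42224 CPM with IL-17A and 56443 with vehicle. Largest in both libraries were 3 collagens. Col1a1 had 15153 CPM with IL-17A and 23623 with vehicle, Col1a2 11793 and 16208, and Col3a1 5289 and 9352. Single fibroblast markers went both ways, with 4 log2 ratios above 0 and 6 below. Dcn was 6.15-fold higher and Fap 2.33-fold lower, and the other 8 lay within 2-fold. Markers of other cell types were low, at 3.39 against 2.52 CPM for 7 keratinocyte genes and 6.08 against 6.40 for 6 endothelial genes, IL-17A against vehicle. Of 7 listed lymphocyte genes, 3 were not among the gene rows. The 4 others were at 0 counts with IL-17A, and with vehicle Cd4 had 7 counts and the remaining 3, Cd3e among them, had 0. The 6 mural genes summed to 66.6 CPM with IL-17A and 203 with vehicle, with 4 of the 5 measured at least 2-fold lower. The 8 myeloid genes summed to 283 CPM with IL-17A and 203 with vehicle, most of it from Lyz2, and none of the 7 measured was past 2-fold. Single myeloid genes went both ways: with IL-17A and vehicle, Lyz2 had 5227 and 3836 counts, Cd14 had 360 and 201, Itgam 84 and 47, Csf1r 402 and 408, Ptprc 88 and 87, Adgre1 170 and 194, Cd68 168 and 270, and Fcgr1, under the minimum, 6 and 28. Myeloid cells also use Zc3h12a, Zc3h12c and Zfp36, and the part of these transcripts in the values below was not tested. In bulk RNA, fewer cells of a type and less RNA per cell cannot be told apart.

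The response of the 10 regulators to IL-17A was uneven. Both listed Regnase transcripts, Zc3h12a and Zc3h12c, were at least 2-fold higher, and Arid5a and Zfp36l1 were more than 1.5-fold higher. Zfp36l2 was lower, and the Roquins, Zfp36, Elavl1 and Khsrp differed little. Thus 2 of 10 were at least 2-fold higher, against 5.19% of all measured genes, and 0 of 10 were at least 2-fold lower, against 3.69%. At 1.5-fold, 4 were higher and 0 lower, against 10.1% and 8.25% of measured genes. At 3-fold, 1 was higher and 0 lower, against 2.51% and 1.62%. The median log2 ratio of the 10 was 0.22, and that of all measured genes was 0.00. All 10 passed the minimum of 50 counts.

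**Figure D2:**
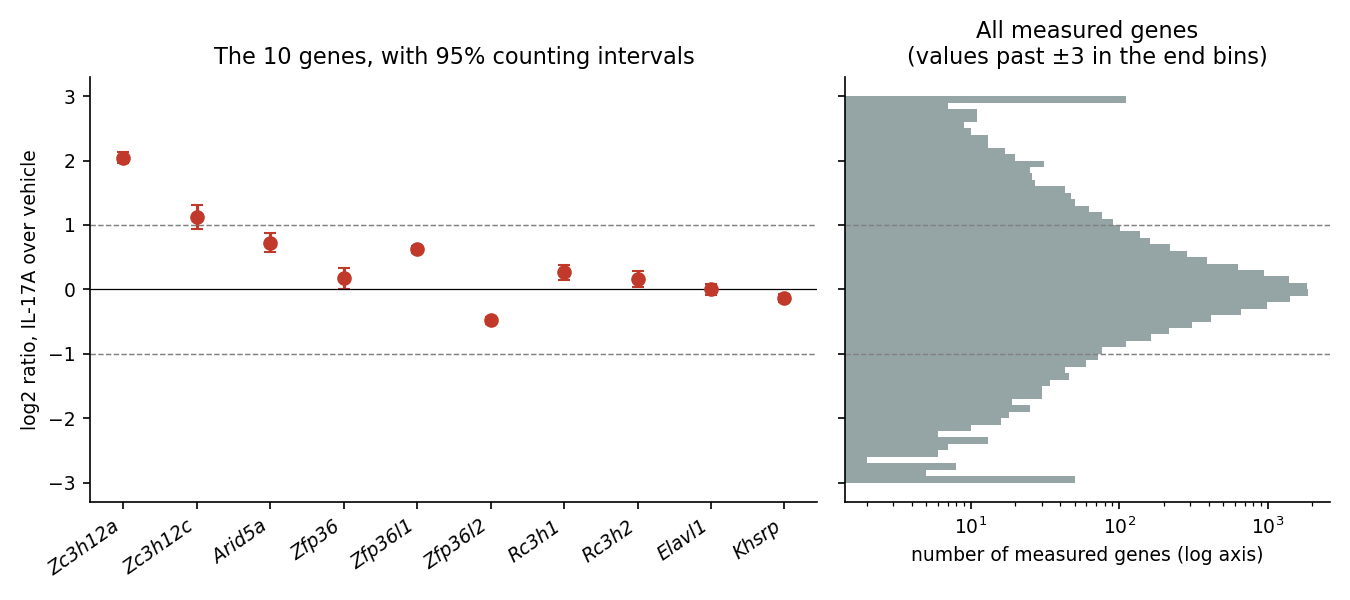
Log2 ratio of IL-17A over vehicle for each of the 10 genes with its 95% counting interval (left) and the number of measured genes at each ratio (right, log axis). Dashed lines mark 2-fold, and Zc3h12a at 2.04 and Zc3h12c at 1.13 lie above the upper line.

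Zc3h12a (ENSMUSG00000042677.7, chromosome 4, 125118423 to 125127840, minus strand) encodes Regnase-1, the RNase that cuts Il6 and other inflammatory transcripts and acts as a brake on IL-17 signalling. It had 5553 counts with IL-17A and 1465 with vehicle, which is 241 CPM against 58.6 CPM. The ratio was 4.12 (95% counting interval 3.89 to 4.37), and 1.56% of measured genes had a higher one. Per kilobase of transcript, it stood above 94.5% of the genes with IL-17A and above 72.8% with vehicle. Zc3h12a had 3 stem-loops, Rc3h1 had 4, of which 2 overlap, with a ratio of 1.20, and Arid5a had none with a ratio of 1.65. A relation of stem-loop number to the ratio was not tested.

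Zc3h12c (ENSMUSG00000035164.8, chromosome 9, 52111344 to 52168572, minus strand) encodes the related RNase Regnase-3. It was 2.19-fold higher (95% counting interval 1.92 to 2.49), with 730 counts with IL-17A and 363 with vehicle. The lower bound of that interval is under 2. Its level per kilobase of principal transcript was the lowest of the 10, at 4.69 CPM per kb with IL-17A and 2.15 with vehicle. With IL-17A its counting interval overlapped those of Rc3h1 and Rc3h2. The rank depended on the length used: with merged exons of all transcripts it was 8 in both libraries. Of the counts of Zc3h12a and Zc3h12c together, Zc3h12a held 88.4% (exact 95% interval 87.6 to 89.2) with IL-17A and 80.1% (78.2 to 81.9) with vehicle. The share does not depend on how libraries are scaled, and its intervals do not overlap.

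Arid5a (ENSMUSG00000037447.16, chromosome 1, 36307733 to 36324029, plus strand) encodes the stabiliser of Il6 and Stat3 transcripts that opposes Regnase-1. It had 935 counts with IL-17A and 616 with vehicle, a ratio of 1.65 (95% counting interval 1.49 to 1.83), which 7.82% of measured genes exceeded. Regnase-1 and its opponent were thus both higher, by unequal factors. Arid5a held 14.4% (exact 95% interval 13.6 to 15.3) of the counts of this pair with IL-17A and 29.6% (27.6 to 31.6) with vehicle.

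**Figure D3:**
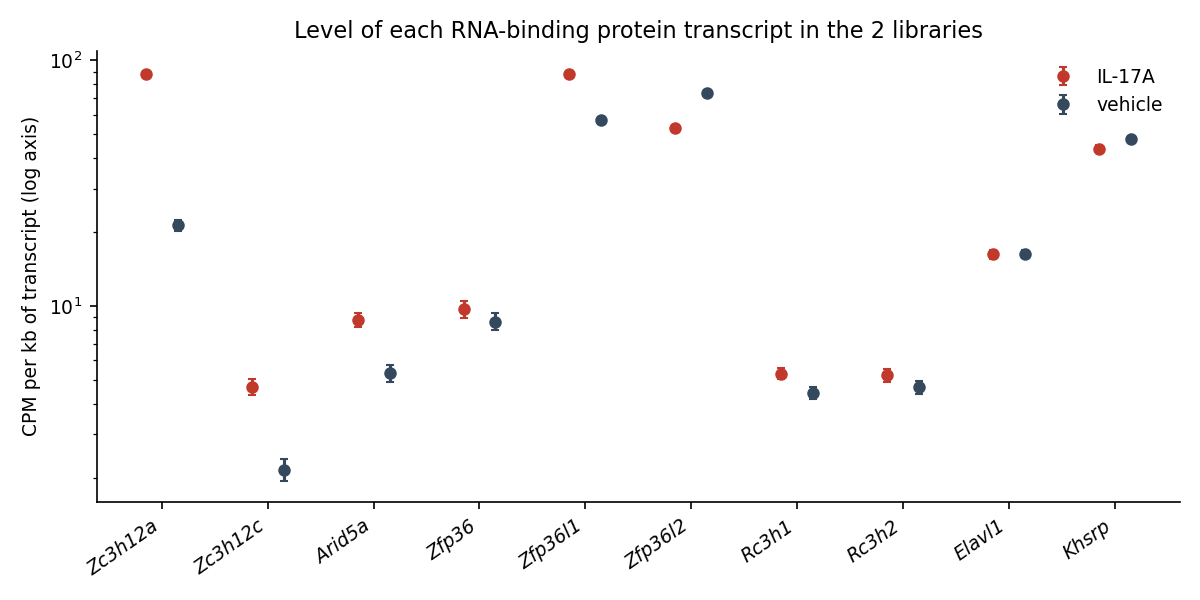
Level of each of the 10 transcripts in CPM per kilobase of its principal transcript, on a log axis, IL-17A left of vehicle, with 95% Poisson intervals of the counts. Zc3h12a lies at 87.6 with IL-17A and 21.3 with vehicle, while the points of Elavl1 lie level at 16.3 in both.

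The Zfp36 genes encode CCCH zinc finger proteins that bind AU-rich elements and recruit the CCR4-NOT deadenylase. Their summed level was 477 CPM with IL-17A and 455 with vehicle, but the make-up of that sum differed. Zfp36l1 (ENSMUSG00000021127.7, chromosome 12, 80107754 to 80113013, minus strand) had 6056 counts with IL-17A and 4276 with vehicle, a ratio of 1.54 (95% counting interval 1.48 to 1.60). Zfp36l2 (ENSMUSG00000045817.8, chromosome 17, 84183931 to 84187947, minus strand) had 4295 and 6509 counts, IL-17A and vehicle, and was 1.39-fold lower (1.34 to 1.45). Zfp36l2 was the only one of the 10 more than 1.2-fold lower. 10.8% of measured genes had a lower ratio than Zfp36l2.

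The main family transcript by counts was Zfp36l1 with IL-17A and Zfp36l2 with vehicle. Zfp36l1 held 55.2% of the family's counts (exact 95% interval 54.2 to 56.1) with IL-17A and 37.5% (36.7 to 38.4) with vehicle. Zfp36l2 held 39.1% (38.2 to 40.1) with IL-17A and 57.2% (56.2 to 58.1) with vehicle. Zfp36 (ENSMUSG00000044786.6, chromosome 7, 28376784 to 28380253, minus strand), which encodes tristetraprolin, the founding member that destabilises Tnf, was a minor part at 5.69% and 5.30%, with overlapping intervals. It had 624 counts with IL-17A and 603 with vehicle, a ratio of 1.12 (95% counting interval 1.00 to 1.26). So 3 transcripts with the same nonamer had ratios of 1.54, 1.12 and 0.717. In GENCODE M21, 1672 of the 2990 exonic bases of Zfp36l1 overlap Gm26669 on the opposite strand. Since the strand setting of the counting is not given, reads of these genes may not be separated. Opposite-strand overlaps of 63 to 204 bases occur for Zc3h12c, Zfp36, Zfp36l2, Elavl1 and Khsrp.

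**Figure D4:**
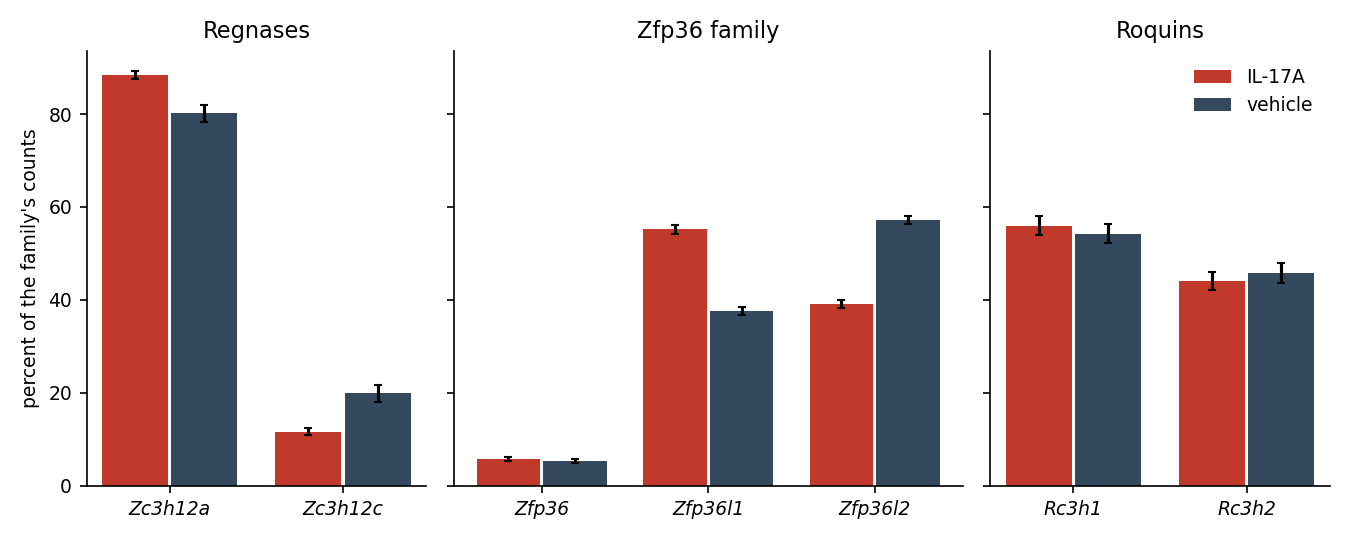
Percent of the summed counts of each family's listed genes held by each gene, IL-17A left of vehicle, with exact 95% binomial intervals. Zfp36l1 holds 55.2% of the Zfp36 family with IL-17A and 37.5% with vehicle, whereas the Roquin shares overlap within their intervals.

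The Roquins are ring and CCCH finger proteins that bind stem-loops and recruit CCR4-NOT. Rc3h1 (ENSMUSG00000040423.10, chromosome 1, 160906418 to 160974978, plus strand) had 1344 counts with IL-17A and 1217 with vehicle, a ratio of 1.20 (95% counting interval 1.11 to 1.30). Rc3h2 (ENSMUSG00000075376.10, chromosome 2, 37370069 to 37422903, minus strand) had 1057 and 1026 counts, IL-17A and vehicle, a ratio of 1.12 (1.03 to 1.22). Rc3h1 held 56.0% (exact 95% interval 54.0 to 58.0) of the Roquin counts with IL-17A and 54.3% (52.2 to 56.3) with vehicle, so no change in balance was detectable at this depth.

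Elavl1 (ENSMUSG00000040028.10, chromosome 8, 4285382 to 4325413, minus strand) encodes HuR, which Act1 uses to protect Cxcl1 transcripts after IL-17A. It had 2150 counts with IL-17A and 2340 with vehicle, and its ratio of 1.00 (95% counting interval 0.941 to 1.06) was the one interval of the 10 that held 1. Khsrp (ENSMUSG00000007670.10, chromosome 17, 57021051 to 57031522, minus strand) encodes a KH-domain protein that promotes decay. It had 4000 counts with IL-17A and 4774 with vehicle, 1.10-fold lower (1.05 to 1.15). Under total-count and upper-quartile scaling the intervals of Zfp36 and Rc3h2 held 1 as well, so these small ratios depended on the scaling.

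Per kilobase of transcript, the order with IL-17A was Zfp36l1 (88.0 CPM per kb), Zc3h12a (87.6), Zfp36l2 (52.9), Khsrp (43.7), Elavl1 (16.3), Zfp36 (9.72), Arid5a (8.76), Rc3h1 (5.31), Rc3h2 (5.22) and Zc3h12c (4.69). With vehicle it was Zfp36l2 (73.7 CPM per kb), Zfp36l1 (57.2), Khsrp (48.0), Zc3h12a (21.3), Elavl1 (16.3), Zfp36 (8.64), Arid5a (5.31), Rc3h2 (4.66), Rc3h1 (4.42) and Zc3h12c (2.15). In this order Zc3h12a stood at place 2 with IL-17A and at place 4 with vehicle. With IL-17A the counting intervals of Zfp36l1 and Zc3h12a overlapped, as did those of Zfp36 and Arid5a and those of the last 3 genes, and with vehicle those of Arid5a and Rc3h2 and of Rc3h2 and Rc3h1. With merged exons of all transcripts as the length, Arid5a stood at place 9 with IL-17A and 10 with vehicle, Zc3h12c at place 8 in both, and the first 6 places were the same.

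By distance over the log2 levels of the 2 libraries, the genes nearest to Zc3h12a were Socs3, a feedback inhibitor of cytokine signalling, with 5232 counts with IL-17A and 1413 with vehicle, Mt2, a metallothionein, with 5120 and 1447, and Adamts7, a metalloproteinase, with 6061 and 1308. Those nearest to Zfp36 were Card19, Fbxl18 and Tomm40l, with ratios of 1.12, 1.11 and 1.14. With 2 libraries such likeness says only that level and ratio are close.

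Listed genes that act on these regulators mostly had log2 ratios above 0. The list was drawn up with earlier results of these data known, so its shares describe the list only. Of 20 listed kinases, adaptors and proteases, all measured, 5 passed 2-fold upward and 0 downward, against 5.19% and 3.69% of all measured genes. Their median log2 ratio was 0.38, and 17 lay above 0, as did 50.3% of all measured genes. Ikbke, the IKK-type kinase that with Tbk1 phosphorylates Regnase-1 after IL-17, was 3.45-fold higher (95% counting interval 3.06 to 3.90), with 1117 counts with IL-17A and 352 with vehicle. Malt1, the protease that cleaves Regnase-1 and the Roquins, was 2.54-fold higher (2.10 to 3.08). Ikbkb, which also marks Regnase-1 for destruction, was 2.30-fold higher (2.15 to 2.47). Mapkapk2 (MK2), which phosphorylates tristetraprolin and lowers its activity, was 2.27-fold higher (2.19 to 2.36), with 9534 counts with IL-17A and 4558 with vehicle. Dusp1, the phosphatase that switches off p38 upstream of MK2, was 2.15-fold higher (1.94 to 2.38). Dusp1 is also on the list of tristetraprolin-family targets. Traf3ip2 and Tbk1, which were chosen after their values were seen, had ratios of 1.64 and 1.48.

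The decay machinery that these proteins recruit showed no measured gene past 2-fold, where 5.19% of all measured genes were higher and 3.69% lower, few of 59. Over 59 measured genes of deadenylation, decapping, the exosome and the Upf1 group, 0 were higher and 0 lower, with log2 ratios between -0.48 and 0.84 and a median of -0.08. The 2 largest absolute log2 ratios of each list were those of Btg1 at 0.84 and Pabpc1, the poly(A)-binding protein, at 0.30 among 18 deadenylation genes, and Dcp1b at -0.37 and Edc3 at 0.33 among 17 decapping genes. They were the exonuclease Dis3 at -0.48 and Exosc8 at -0.41 among 14 exosome genes, and Upf3b at -0.45 and Smg1 at -0.28 among 10 genes around Upf1, the helicase that Regnase-1 works with. Btg1, an antiproliferative protein that binds the deadenylase, had 3528 counts with IL-17A and 2144 with vehicle, a ratio of 1.79 (95% counting interval 1.69 to 1.89).

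The measured genes for other proteins of the same kind also lay within 2-fold. None passed 2-fold upward or downward, against 5.19% and 3.69% of all measured genes. Such shares come to few genes in lists this short. Of 16 further AU-rich element binders, 12 were below 0, while 50.3% of all measured genes lay above 0. The median log2 ratio of the 16 was -0.09, with the largest absolute values for Celf2 at -0.57 and Hnrnpd (AUF1) at -0.43. Among 5 measured paralogues of the 10 genes, N4bp1, an RNase related to Regnase-1, stood at 0.45 and Arid5b at 0.20. Zc3h12b, a relative of Zc3h12a and Zc3h12c, stood at -0.09 with 137 counts with IL-17A and 159 with vehicle. Another 2 paralogues were under the minimum. These were Zc3h12d, at 7 and 8 counts, and Elavl4, a relative of Elavl1, at 22 and 5, a ratio of 4.78 (95% counting interval 1.77 to 16.2). The last 3 were chosen after their values were seen.

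**Figure D5:**
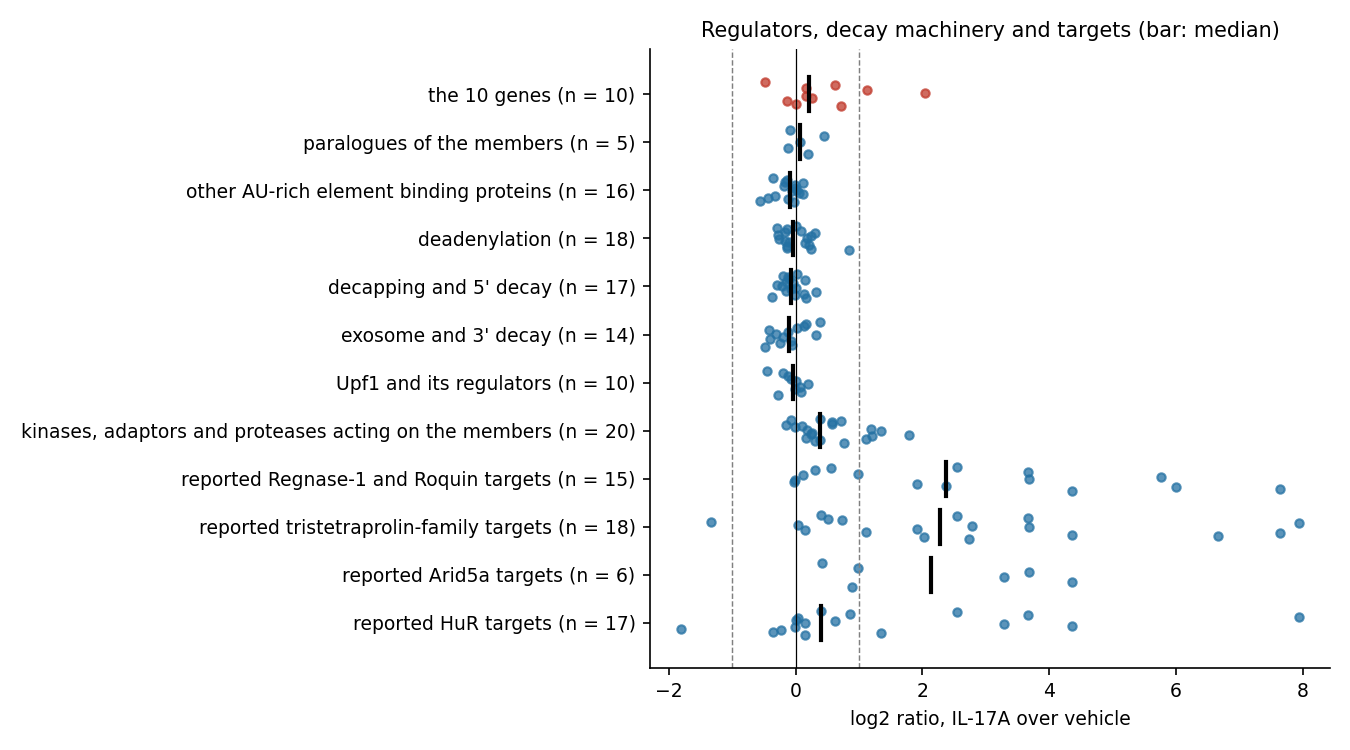
Log2 ratio of IL-17A over vehicle for every measured gene of the 10 regulators (top row, red) and of each list, with the median as a black bar and 2-fold as dashed lines. The decay machinery lies between -0.48 and 0.84, while reported targets of the Regnases, Roquins and tristetraprolin family spread up to 7.94.

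Transcripts reported elsewhere as targets of these proteins were often higher. Of 39 measured targets, each counted once, 17 (43.6%) passed 2-fold upward and 2 downward, against 5.19% and 3.69% of all measured genes. Their median log2 ratio was 0.86. The lists hold mainly inflammatory genes and were drawn up with earlier results known, so these shares describe the lists and say nothing of how the regulators acted.

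By list, against the same 5.19% and 3.69%, 9 of 15 Regnase-1 and Roquin targets were higher and 0 lower (median log2 ratio 2.38), and 12 of 18 tristetraprolin-family targets were higher and 1 lower (2.28). Of 6 Arid5a targets 3 were higher (2.14, and 0.98 with a minimum of 10 counts), and of 17 HuR targets 6 were higher and 1 lower (0.40). The neutrophil chemokine Cxcl1, on all 4 lists, had 16582 counts with IL-17A and 881 with vehicle, and Cxcl5, an Arid5a and HuR target, had 61811 and 6857. Il6, the best known target of both Regnase-1 and Arid5a, had 764 counts with IL-17A and 65 with vehicle, and the cyclooxygenase Ptgs2 had 3083 and 263. Cxcl3, with 352 and 6 counts, Lcn2, with 17987 and 362, and Cxcl2, with 1286 and 7, were higher too. Tnf, the classical target of tristetraprolin, was low, with 59 counts with IL-17A and 11 with vehicle, a ratio of 5.83 (95% counting interval 3.03 to 12.3). Nos2 and Csf2 had 451 and 93 counts with IL-17A and only 2 and 1 with vehicle, for ratios of 245 (67.5 to 2030) and 101 (17.7 to 4035).

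Other listed targets lay within 2-fold or were lower. The receptor transcripts Il17ra and Il17rc, reported to be cut by Regnase-1, had ratios of 0.987 (95% counting interval 0.926 to 1.05) and 0.997 (0.913 to 1.09). Nfkbid stood at 1.09, Rel at 1.23, and Tfrc, which encodes the transferrin receptor, at 1.47. Others within 2-fold lay close to that cut: Nfkbiz, on the Regnase-1 and Arid5a lists, at 1.98, Cebpb at 1.85 and Slc2a1 at 1.81. The HuR target Ccnd1, which encodes cyclin D1, was 3.50-fold lower (3.32 to 3.69), and the tristetraprolin-family target Notch1 was 2.52-fold lower (2.21 to 2.87). Except for Ccnd1, these were chosen after their values were seen.

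For the 9 members with a RefSeq promoter, 10 promoter windows were searched (GRCm38.p6, 250 bases before to 50 after the start, both strands). A match to the kappa B consensus of NF-kB was found in 1 of the 10 windows, against 8.46% of 32851 promoters. It lies 236 bases before a start of Zc3h12c, printed here with the match in capitals, read on the gene's own strand, with the consensus on the opposite one.
Zc3h12c, chr9:52168623-52168652, minus strand: gcggcatgggGGAGCGTCCCgctcggcccg

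The promoter windows of Rc3h1 and Zfp36l1 held the AP-1 site TGANTCA, as did 7.81% of promoters. The C/EBP motif TTGCNNAA, held by 10.8% of promoters, was found for Rc3h2 and Zc3h12c. For Zc3h12c it lies in the window of a different start from that of the kappa B match. None of these letters was found in the Zc3h12a, Arid5a, Zfp36, Elavl1 or Khsrp windows.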

How the data were processed

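The authors deposited raw counts per gene symbol, whole numbers with no normalization, as 1 column per library. Alignment to mm10 with STAR and counting with featureCounts are listed in the submitters' processing notes, and a stranded mRNA preparation in the labels' protocols. No version, annotation, strand setting or rule for multiply aligned reads is given in the sources used here.

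Library sizes were scaled with TMM (edgeR 4.0.16, R 4.3.3). The ratio is IL-17A over vehicle for genes with at least 50 summed counts, and a gene at 0 in a library was set to 3 counts there. Intervals are exact 95% Clopper-Pearson intervals, taken on the fraction of each gene's counts that came from IL-17A. The intervals cover counting error only and take each read as independent. Amplified reads without molecular identifiers may be copies of 1 molecule, so the intervals may be too narrow even for that. A gene was called at 2-fold, a rule of size, since single libraries leave nothing from which a test could estimate spread. The script was checked against simulated libraries of known fold. These held counting error only, as the intervals assume, so the check says nothing of spread between libraries.

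Lengths, 3′ UTRs and positions come from GENCODE M21 (GRCm38), using 1 transcript per gene by APPRIS rank, then length, and promoters from RefSeq. The annotation used for counting may differ. The 10 genes and all lists were chosen with earlier results of these data known. Named genes are the 10, the list genes past 2-fold (at most 6 a list, otherwise the 2 with the largest absolute log2 ratio) and the 3 nearest by level to Zc3h12a and Zfp36. The settings varied were scaling (total counts, upper quartile, DESeq2 1.42.0 size factors), the minimum (10, 200, none), a prior count of 2, and the fold called (1.5 and 3). The length per gene and the settings for element classes were added after seeing the data.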

Additional observations from a re-analysis of the deposited data

How the results depend on the processing

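With 1 library per group, no replicate could be left out. No paired analysis was possible because each group holds 1 library and no test was run. The minimum could not alter the ratios of the 10 genes, which all exceeded it. Of 40 ratios recomputed with another scaling or a prior count, 37 stayed within their counting interval and 3 did not, all under total-count scaling, which lowered the median of all genes by 0.07: Zfp36l1 at 0.55, Zfp36l2 at -0.55 and Khsrp at -0.20 on the log2 scale. None changed its direction, and Zc3h12a ranged from 1.98 to 2.04 and Zc3h12c from 1.06 to 1.13. The count of the 10 genes higher was 4 at 1.5-fold and 1 at 3-fold. The median of the Arid5a targets was 2.07 under total-count scaling and 0.98 with a minimum of 10 or none, when Tnfrsf4, below the usual minimum, entered it. That of the HuR targets was 0.34 under total-count scaling and 0.28 with a minimum of 200. Without a minimum, or with one of 10, 1 paralogue, Elavl4, was higher. At 1.5-fold, 1 deadenylation gene and 5 Arid5a targets were higher. At 3-fold, 1 kinase, adaptor or protease was higher and 0 tristetraprolin-family targets were lower. The minimum also set how many genes were called: 702 higher and 500 lower at 50, 1090 and 955 at 10, 1573 and 1335 with none, and 507 and 275 at 200.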

Other observations

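Across all measured genes, the share that was higher with IL-17A was read against the number of AU-rich nonamers (TTATTTATT) in the 3′ UTR. Of 195 genes with 2 or more, 23 (11.8%) were at least 2-fold higher and 5 (2.56%) lower, of 722 with 1, 51 (7.06%) and 27 (3.74%), and of 10955 with none, 560 (5.11%) and 434 (3.96%). Genes with 2 or more had longer 3′ UTRs, with a median of 2861 bases, against 1012 for those with none. Among genes with a 3′ UTR of 500 to 2000 bases, 11 of 59 with 2 or more nonamers (18.6%) and 250 of 5035 with none (4.97%) were higher. Among those with over 2000 bases the same shares were 8.59% of 128 and 5.33% of 2777. With 1 nonamer the share was 8.07% of 285 in the shorter band and 7.01% of 385 in the longer. With 3 or more it was 26.7% of only 15 and 6.38% of 47. Thus over 2000 bases the share did not rise steadily with nonamer number. The genes with 2 or more include the targets Cxcl1, Cxcl2, Csf2, Tnf and Lif, chosen after their values were seen. The count of 23 ranged from 16 to 31 over the scalings, minimums and prior count tried, and was 35 at 1.5-fold and 11 at 3-fold.

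Genes with at least 1 stem-loop of the kind described were higher in 160 of 2787 cases (5.74%), against 474 of 9085 without (5.22%). The direction turned with length: among 3′ UTRs of 500 to 2000 bases the shares were 4.58% of 1070 and 5.45% of 4309, and over 2000 bases 6.41% of 1544 and 4.98% of 1746. No test was run on these shares, which come from 1 library per group, and what else differs between the classes beside length was not tested.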
